A study of Mus musculus with 9 samples.

Results

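Ptch1 tumours are medulloblastomas of the Sonic hedgehog (SHH) kind that arose in the cerebellum of mice with genotype Ptch1+/-, and here they were compared with normal cerebellum. The members were chosen by genotype and tissue: 3 primary tumour libraries labelled Ptch1+/- and 3 libraries of adult wild-type cerebellum, which make 6 of the 9 libraries in the study. The tumour animals were of mixed strain and carried no other allele in the labels, and the cerebellum came from C57BL/6 mice. The other 3 libraries, from tumours of another mouse model, enter only the fit with all 9 libraries, which is among the alternatives given below. Ribosome-depleted total RNA was sequenced on an Ion Proton. The sources used here do not state the age of the tumour animals or whether every library is a separate animal, so p-values reflect only how far these libraries differ from each other, which may be technical. Each tumour is a mixture of tumour cells and host tissue, every cell of which carries the Ptch1 mutation, and adult cerebellum no longer holds the dividing layer from which these tumours start.

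Hedgehog ligands act on PTCH1, a receptor that holds the membrane protein SMO inactive in their absence. Loss of PTCH1 frees SMO at the primary cilium, and the GLI transcription factors then switch on growth genes such as Mycn and the D cyclins and feedback genes such as Ptch1, Gli1 and Hhip. In the young cerebellum SHH from Purkinje cells keeps granule neuron progenitors dividing in the external granular layer, and these ATOH1-positive cells are the accepted origin of SHH medulloblastoma. Progenitors that leave the cycle switch on migration genes, and much later the ion channels, receptors and synaptic genes of mature granule cells, the most numerous neurons of the brain.

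The tumour libraries held 4395159, 9290237 and 2699234 fragments assigned to genes and the cerebellum libraries 3868432, 3304042 and 5300936. Levels are counts-per-million (CPM) scaled over these 6 libraries, given in the order of libraries 1, 2 and 3 of each group. CPM is not corrected for gene length and is compared between libraries only. A count of 3 fragments, taken as the limit that a count of 0 allows, equals 0.326 to 1.11 CPM depending on the library, and such limits cover counting error only. Within a group the libraries correlated across genes at a Spearman's rho of 0.945 to 0.970. The first principal component, with 81.0% of the variance, separated tumours from cerebellum. The 4 Y-linked genes Ddx3y, Eif2s3y, Kdm5d and Uty stood at 33.5 to 137 CPM in tumours 1 and 2 and at 0 to 1.03 CPM in tumour 3 and the cerebellum libraries, while Xist, the RNA of the inactive X, was at 0, 1.52 and 44.8 CPM in tumours and 472, 632 and 1030.1 CPM in cerebellum. Tumour 3 thus stood with the cerebellum libraries for the Y-linked genes, and the part of these differences in the results was not tested. Strain differs between the groups together with the tissue, and strain and tumour cannot be told apart. The sources used here do not say which libraries shared a sequencing chip. In bulk RNA, fewer cells of a type and less RNA per cell cannot be told apart. Whether the counting used strand is not stated, so antisense and overlapping genes may share fragments, as may near copies of a gene, which are common among globins, tubulins, histones and ribosomal proteins.

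Tumour and normal tissue differed across a large part of the transcriptome. Of 13364 genes tested, 6040 passed edgeR's quasi-likelihood test at an adjusted p of 0.05 (45.2%), 2876 of them higher in tumours (21.5%) and 3164 lower (23.7%). A change of at least 2-fold was fitted for 5243 of these genes, and for 2075 genes the 95% interval lay wholly within 2-fold. Without tumour 1 the last count was 1266, and without cerebellum 2 it was 958. The 3 tumours did not overlap the 3 cerebellum libraries in 7536 genes (56.4%), of which 3617 were higher (27.1%) and 3919 lower (29.3%). The median log2 change of all tested genes was -0.05. All adjusted p-values below come from this edgeR test (Benjamini-Hochberg, over the 13364 genes), and log2 changes are tumour minus cerebellum with their standard error (SE). Where a list below had no member called in a direction, the count was also 0 at an unadjusted p under 0.05, by DESeq2 and by limma, apart from 1 astrocyte gene that was higher at an unadjusted p under 0.05 and by DESeq2. With single libraries left out, 1 member was called higher among astrocyte genes (without tumour 3 or cerebellum 3), interneuron genes (without cerebellum 3) and cholesterol genes (without tumour 3).

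Mitosis genes stood among the largest rises, and genes of Purkinje cells and interneurons among the largest falls. Among called genes without overlap and with a mean of at least 20 CPM in the higher group, leaving out predicted and clone-named ones, the 12 largest rises were those of Kntc1, Nhlh1, Pif1, Shcbp1, Pbk, Lhx2, Cdca5, Uhrf1, Igfbpl1, Cdca3, Draxin and Kif2c. Kntc1, Cdca3, Cdca5, Kif2c, Pbk and Shcbp1 act in mitosis or cytokinesis, Pif1 is a DNA helicase, Uhrf1 recruits DNA methyltransferase to replicated DNA, Lhx2 is a homeobox factor of neural progenitors and Draxin guides axons. Lhx2 stood at 18.9, 25.4 and 29.6 CPM in tumours and 0, 0 and 0 CPM in cerebellum. Igfbpl1 stood at 166, 173 and 113 CPM in tumours and 0.257, 0.298 and 0 CPM in cerebellum. The 12 largest falls were those of Pcp2, Hbb-b1, Nell1, Dao, Alpk2, Paqr9, Cck, Trpc1, Slc32a1, Arhgef33, Calb1 and Cdr1. Pcp2 and Calb1 mark Purkinje cells, Slc32a1 loads GABA and glycine into vesicles, Dao degrades D-amino acids in Bergmann glia and astrocytes, Cck encodes a neuropeptide and Hbb-b1 a globin of blood. Dao stood at 0.220, 0 and 0 CPM in tumours and 128, 89.1 and 87.1 CPM in cerebellum, and Cck at 0, 0 and 0 against 24.2, 26.2 and 17.6 CPM.

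**Figure D1:**
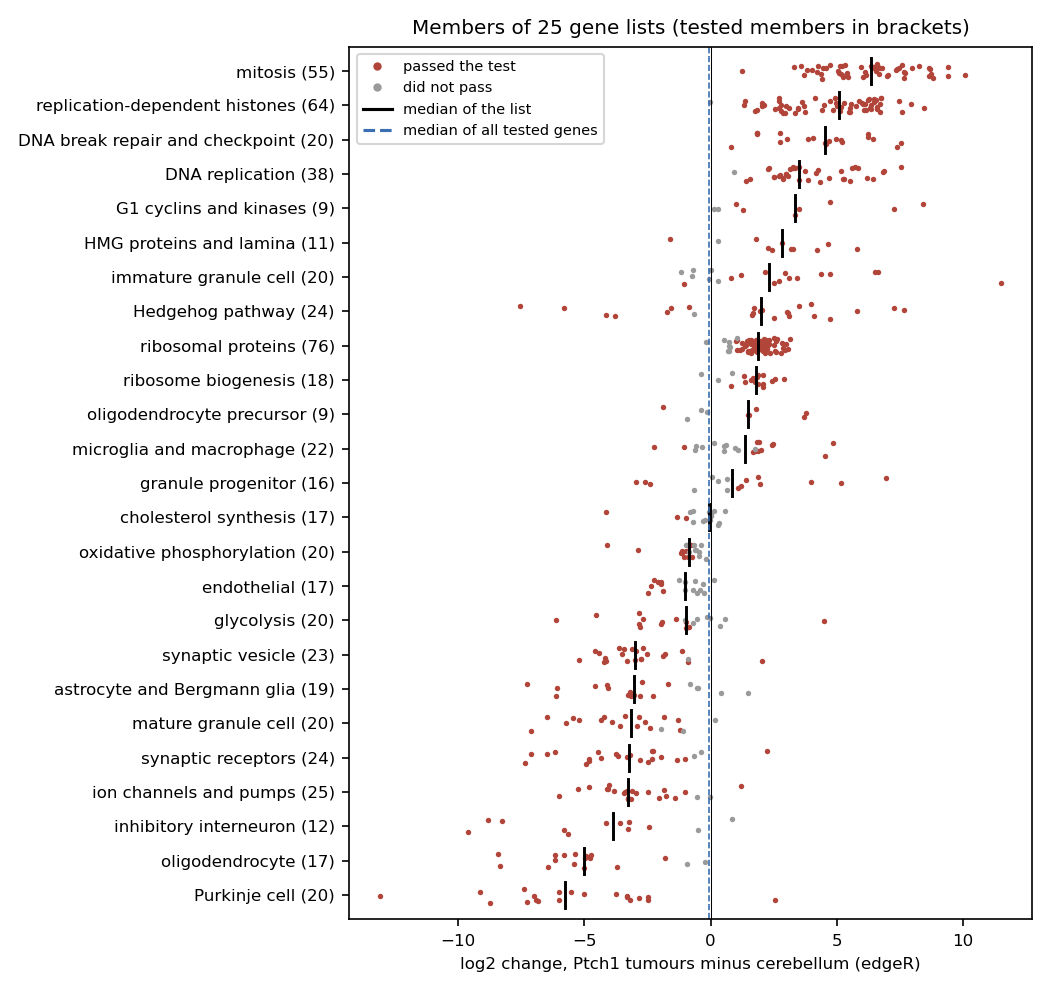
Each point is a tested member of 1 of 25 gene lists, at its log2 change between 3 Ptch1 tumours and 3 cerebellum libraries; the number of tested members stands in brackets, black bars are list medians and the dashed line is the median of all tested genes (-0.05). Mitosis (median 6.35), histones (5.07) and DNA repair (4.55) lie farthest to the right, and Purkinje cell genes (-5.77) and oligodendrocyte genes (-5.02) farthest to the left.

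Hedgehog pathway genes were mostly higher in the tumours. Of 24 tested, 16 rose and 7 fell, against 21.5% and 23.7% of all tested genes. Their median log2 change was 2.0, against -0.05 for all tested genes. Ptch1 itself (mm10 chromosome 13, 63508328 to 63573598) stood at 69.4, 51 and 96.6 CPM in tumours and 54.8, 103 and 183 CPM in cerebellum. The groups overlapped, and the change of -0.66 (SE 0.42, 95% interval -1.59 to 0.27, adjusted p = 0.224) did not pass. Counts per gene do not tell the mutant from the intact allele, so this value checks no label. Smo, the signal-transducing membrane protein (chromosome 6, 29735503 to 29761365), was at 215, 212 and 283 CPM in tumours against 29.3, 30.1 and 25.1 CPM in cerebellum (log2 change 3.07, SE 0.26, adjusted p = 1.57e-05). Every tumour library lay far above every cerebellum library.

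The coreceptors went different ways. Boc rose, from 117, 102 and 145 CPM in cerebellum to 327, 301 and 535 CPM in tumours (log2 change 1.67, SE 0.3, adjusted p = 0.00133). Gas1 stood at 44.3, 109 and 42.6 CPM in tumours, highest in tumour 2, against 19.3, 10.7 and 17.4 CPM in cerebellum (log2 change 2.05, 1.45 without tumour 2). Cdon, a coreceptor of the same family as Boc, fell from 62.2, 64.4 and 75 CPM in cerebellum to 1.76, 1.3 and 0 CPM in tumours (log2 change -5.82, SE 0.52, adjusted p = 2.42e-05). The ligand gene Shh had no fragment in any tumour and 2.83, 5.96 and 5.66 CPM in cerebellum, where Purkinje cells are its known source (adjusted p = 9.61e-04).

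Among the transducers, Gli1, a target and effector of the pathway (chromosome 10, 127329882 to 127341974), stood at 186, 181 and 200.3 CPM in tumours and 7.97, 12.5 and 15 CPM in cerebellum (log2 change 3.99, SE 0.3, adjusted p = 9.05e-06). Gli2, the main activator (chromosome 1, 118834132 to 119053619), stood at 161, 126 and 142 CPM against 5.14, 7.75 and 11.7 CPM (log2 change 4.1, SE 0.34, adjusted p = 1.52e-05). Gli3, the main repressor, fell from 6.94, 10.4 and 17.4 CPM in cerebellum to 0.220, 0 and 2.59 CPM in tumours (log2 change -4.12, -3.21 without tumour 2 and -6.82 without tumour 3). The 3 Gli genes thus split into 2 that rose and 1 that fell. The inhibitors Sufu and Hhip also rose: Sufu stood at 55.7, 63.4 and 31.5 CPM against 5.4, 14.6 and 19 CPM (log2 change 1.95), and Hhip at 133, 69.8 and 91.1 CPM against 34.2, 23.5 and 31.7 CPM (1.71). Evc and Evc2, which relay the SMO signal at the cilium base, rose by 3.09 and 3.03, and Kif7 by 2.5. The GLI-degrading adaptor Spop fell from 201, 187 and 232 CPM to 67.4, 65.2 and 77.4 CPM. Of 22 genes of the cilium itself, where the signal is read, 6 rose, Arl13b, Ift74, Ift122 and Ift140 among them, near the 21.5% of all tested genes. A fall was called for 2, but for 1 without any 1 of the tumours and for 0 without cerebellum 2.

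Growth targets of the pathway rose steeply. Mycn, which drives progenitor growth (chromosome 12, 12936093 to 12941914), stood at 517, 482 and 437 CPM in tumours and 8.74, 6.86 and 10.1 CPM in cerebellum (log2 change 5.79, SE 0.3, adjusted p = 1.99e-06). Ccnd1, a D cyclin, stood at 405, 625 and 469.9 CPM against 40.6, 43.8 and 48.7 CPM (log2 change 3.49, SE 0.28, adjusted p = 1.21e-05). Ccnd2, the D cyclin of granule progenitors (chromosome 6, 127125162 to 127152193), stood at 1049.8, 1477 and 1156 CPM against 6.43, 7.45 and 9.9 CPM (log2 change 7.26, SE 0.35, adjusted p = 1.99e-06). All 3 rose without overlap between the groups. Sfrp1, a secreted WNT inhibitor, stood at 1075, 1060.0 and 575 CPM against 4.63, 6.26 and 2.83 CPM (log2 change 7.64, SE 0.45, adjusted p = 2.7e-06), with tumour 3 the lowest of the tumours. Igf2, which has been linked to Hedgehog-driven growth, went the other way: it was at 53.3, 16.6 and 27.4 CPM in tumours and 80.8, 102 and 138 CPM in cerebellum (log2 change -1.72, adjusted p = 0.00710). Nkx2-2, a target in the neural tube that is also an oligodendrocyte factor, was at 1.76, 0.651 and 0 CPM against 5.4, 8.64 and 22 CPM (log2 change -3.78, -4.66 without tumour 1 and -2.97 without cerebellum 3).

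Marker genes of the human medulloblastoma subgroups were also compared between tumours and cerebellum. Such markers tell tumours from each other, and adult cerebellum itself held some of them. Among these, Gad1 stood at 253, 288 and 242 CPM and Kcna1 at 632, 718 and 851 CPM in cerebellum. The comparison therefore cannot check the subgroup label. Of 5 SHH markers tested, Atoh1, Sfrp1, Hhip and Pdlim3 were higher in the tumours and Eya1 was lower. The calls of 2 of these were lost when certain single libraries were left out. Pdlim3 (log2 change 1.84) did not pass without tumour 3 (1.38) or cerebellum 2 (1.72), with 2.55 without cerebellum 1. Eya1 (-2.6) did not pass without cerebellum 1 (-1.64). No marker of the WNT subgroup (3 tested, 1 lower) or of Group 3 (3 tested, none passed) was called higher, and of 5 Group 4 markers 1 rose and 3 fell.

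**Figure D2:**
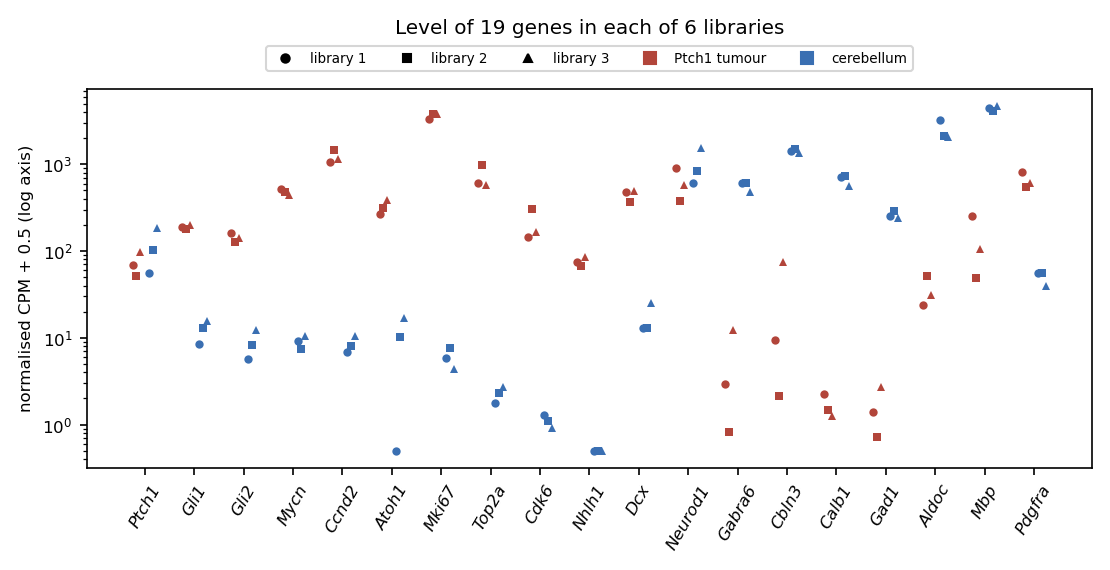
Normalised CPM plus 0.5 on a log axis for 19 genes in each of the 3 Ptch1 tumours (red) and 3 cerebellum libraries (blue), with the symbol giving the library number. Gli1, Gli2, Mycn, Ccnd2, Mki67 and Pdgfra are separated with tumours above, Calb1, Gad1, Aldoc and Mbp with tumours below, and Ptch1 and Neurod1 overlap.

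Granule cell genes followed the stage at which they are used. Of 20 genes of newly postmitotic, migrating granule cells, 13 rose and 1 fell, or 2 without cerebellum 1 (median 2.33). Of 20 genes of mature granule cells none rose and 17 fell (median -3.15). Among 16 transcription factors of granule progenitors 8 rose and 3 fell (median 0.86). Over all tested genes 21.5% rose and 23.7% fell. Atoh1, which keeps progenitors in the cycle (chromosome 6, 64729125 to 64731245), stood at 268, 316 and 391 CPM in tumours and 0, 9.84 and 16.6 CPM in cerebellum, with no fragment in cerebellum 1 (log2 change 5.18, SE 0.87, adjusted p = 9.48e-04, and 6.12 without cerebellum 3). Barhl1, a homeobox factor downstream of Atoh1, stood at 248, 226 and 255 CPM against 7.72, 16.4 and 22.4 CPM (log2 change 3.96, SE 0.38, adjusted p = 3.67e-05). Insm1, a zinc finger factor of progenitors leaving the cycle, stood at 158, 218 and 179 CPM against 1.03, 0 and 3.03 CPM (log2 change 6.94, 8.36 without cerebellum 3). Zic1, a factor of the whole granule lineage, overlapped between the groups, with 1881, 1350.3 and 1234 CPM in tumours and 986, 1166 and 1449 CPM in cerebellum (log2 change 0.31, 95% interval -0.31 to 0.93). Zic4 and Meis1 rose by 1.4 and 1.88, and Meis2 fell by 2.94 on the log2 scale.

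Nhlh1, a basic helix-loop-helix factor that marks the inner external granular layer (chromosome 1, 172052292 to 172057573), stood at 75.1, 66.7 and 85.9 CPM in tumours and at 0 in all 3 cerebellum libraries. Against the limit of 3 fragments per cerebellum library it was at least 100.2-fold higher. Sox11, a factor of early neurons, stood at 1143, 1051 and 1028 CPM against 13.4, 11 and 8.29 CPM (log2 change 6.62, SE 0.33, adjusted p = 1.99e-06). Dcx, the microtubule protein of migrating neurons, stood at 485, 363 and 492 CPM against 12.6, 12.5 and 24.5 CPM (log2 change 4.74, SE 0.36, adjusted p = 9.54e-06). Cxcr4, the chemokine receptor that holds progenitors at the surface, stood at 49.1, 111 and 72.2 CPM against 1.03, 1.19 and 0.404 CPM (log2 change 6.5, SE 0.51, adjusted p = 1.12e-05). In these 4 genes the groups did not overlap. Neurod1 and Cntn2, which mark postmitotic granule cells and are kept in the adult, overlapped: Neurod1 stood at 909.8, 380.0 and 582 CPM against 605, 833 and 1557 CPM (log2 change -0.68, adjusted p = 0.210), and Cntn2 at 483, 182 and 460.3 CPM against 262, 351 and 504 CPM (0.01, adjusted p = 0.985). Miat, a long noncoding RNA of neural progenitors and neurons, stood at 2156, 1139 and 1966 CPM against 17.2, 18.2 and 14.6 CPM (log2 change 6.72, SE 0.38, adjusted p = 2.07e-06).

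Mature granule cell genes differed among the tumours as well as from cerebellum. Gabra6, the GABA receptor subunit particular to adult granule cells (chromosome 11, 42306437 to 42321072), stood at 2.42, 0.326 and 11.8 CPM in tumours and 606, 602 and 485 CPM in cerebellum (log2 change -7.11, SE 0.92, adjusted p = 2.16e-04, -6.39 without tumour 2 and -8.87 without tumour 3). Cbln3, a synapse organiser of granule cells, stood at 8.81, 1.63 and 73.7 CPM against 1437, 1480.5 and 1353 CPM (log2 change -5.72, -5.13 without tumour 2 and -8.14 without tumour 3). Slc17a7, the vesicular glutamate transporter, stood at 3.08, 0.326 and 34.4 CPM against 301, 330.0 and 648 CPM (-5.22, -4.56 without tumour 2 and -8.15 without tumour 3). Grin2c, an NMDA receptor subunit switched on late, stood at 0.220, 0.760 and 37 CPM against 212, 209.8 and 262 CPM (-4.33, -3.69 without tumour 1, -3.68 without tumour 2 and -8.56 without tumour 3). In all 4 genes tumour 3 was the highest tumour and still lay below every cerebellum library. Summed over the list, the level was 2228, 1259.5 and 3637 CPM in tumours and 13480.0, 13418 and 14701 CPM in cerebellum, lowest in tumour 2 and highest in tumour 3 among the tumours. Reln, the secreted guide of migrating neurons that granule cells make, stood at 733, 492 and 948 CPM in tumours and 547, 622 and 732 CPM in cerebellum and did not pass (log2 change 0.19, 95% interval -0.46 to 0.85).

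Genes of cell division rose nearly without exception. All 55 tested mitosis genes rose (median 6.35), as did 37 of 38 DNA replication genes (median 3.5), all 20 genes of DNA break repair and its checkpoint (median 4.55) and 63 of 64 replication-dependent histone genes (median 5.07), against 21.5% of all tested genes. Summed over the mitosis list, the level was 11939, 14719 and 11823 CPM in tumours and 252, 217 and 194 CPM in cerebellum. Mki67, the proliferation antigen that coats mitotic chromosomes (chromosome 7, 135689784 to 135716361), stood at 3302, 3811 and 3782 CPM in tumours and 5.4, 7.15 and 3.84 CPM in cerebellum (log2 change 9.39, SE 0.4, adjusted p = 1.99e-06). Top2a, which untangles DNA before division (chromosome 11, 98992943 to 99024189), stood at 601, 991 and 583 CPM against 1.29, 1.79 and 2.22 CPM (log2 change 8.64, SE 0.42, adjusted p = 1.99e-06). Aurkb, the kinase of the chromosomal passenger complex, stood at 60.3, 91 and 107 CPM against 0, 0.298 and 0.202 CPM (log2 change 8.82, SE 0.55, adjusted p = 3.21e-06). Foxm1, the transcription factor of the mitotic programme, stood at 149.98, 155 and 150.3 CPM against 0.514, 0 and 3.44 CPM (log2 change 6.66, 9.0 without cerebellum 3). Cdk1, the kinase that starts mitosis, stood at 23.6, 50.2 and 22.6 CPM against 0, 0.596 and 0 CPM (adjusted p = 8.01e-05). Where cerebellum libraries held 0 to a few fragments, the fitted change depends on those few.

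Replication genes rose with a smaller median than mitosis genes. Mcm6, part of the helicase that opens replication forks (chromosome 1, 128331590 to 128359664), stood at 222, 323 and 199 CPM in tumours and 2.57, 3.58 and 2.43 CPM in cerebellum (log2 change 6.45, SE 0.35, adjusted p = 1.99e-06). Pcna, the sliding clamp of the polymerases, stood at 85.7, 133 and 78.9 CPM against 17, 15.5 and 8.29 CPM (log2 change 2.88, SE 0.36, adjusted p = 1.64e-04). Gins4 was the member that did not pass (19.8, 13.1 and 11.8 CPM against 3.6, 11.3 and 8.69 CPM). Among repair genes, Brca1, needed for homologous recombination, stood at 346, 318 and 298 CPM against 4.89, 4.77 and 3.03 CPM (log2 change 6.25, SE 0.32, adjusted p = 1.99e-06). The damage kinase Atm rose by 1.84, while the rise of 0.81 in the related kinase Atr was no longer called without tumour 1 (0.85), tumour 2 (0.67), cerebellum 2 (0.86) or cerebellum 3 (0.72). Of 9 G1 cyclins and kinases 7 rose: Cdk6, the partner of the D cyclins, stood at 146, 308 and 165 CPM against 0.772, 0.596 and 0.404 CPM (log2 change 8.42, SE 0.49, adjusted p = 2.62e-06), and Cdk4 at 168, 302 and 198 CPM against 21.6, 24.1 and 19.4 CPM (log2 change 3.36, SE 0.3, adjusted p = 2.42e-05). Ccnd3 and Ccne1 did not pass.

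Brakes on the cycle rose in part. Of 18 tested, 8 rose and none fell (median 0.665), against 21.5% higher and 23.7% lower among all tested genes. Cdkn1b, the inhibitor p27, stood at 581, 529 and 652 CPM in tumours and 182, 180.0 and 171 CPM in cerebellum (log2 change 1.73, SE 0.23, adjusted p = 2.75e-04). Cdkn2c, the inhibitor p18, stood at 50.7, 52.8 and 27.8 CPM against 4.89, 1.49 and 3.03 CPM (log2 change 3.78, SE 0.46, adjusted p = 1.52e-04). Cdkn2a, which encodes p16 and ARF, had no fragment in cerebellum and stood at 3.96, 7.49 and 37.4 CPM in tumours, highest in tumour 3 (adjusted p = 0.00275). Trp53 stood at 24.4, 38.6 and 31.5 CPM against 1.8, 5.66 and 11.3 CPM (2.31, 3.12 without cerebellum 3). The p53 target Cdkn1a overlapped between the groups, with 7.49, 29.4 and 7.78 CPM in tumours and 3.86, 8.35 and 26.9 CPM in cerebellum.

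Because mitosis and replication genes moved together, their promoters were read for the short elements known to time them. The cell cycle genes homology region (CHR, TTTGAA) and CCAAT boxes are known for late cell cycle genes, and E2F sites (TTTCCCGC or TTTGGCGC) for S phase genes. Promoters were the 250 bases before the start of RefSeq transcripts on GRCm38.p6, searched on both strands, and 9738 of 13364 tested genes matched by symbol. Below, 5 stretches of 120 bases directly before a start show the elements in capitals, written on the strand of the gene, where an element on the other strand reads as its reverse complement (ATTGG for a CCAAT box).
Mki67 (chr7:135716380-135716499, minus strand): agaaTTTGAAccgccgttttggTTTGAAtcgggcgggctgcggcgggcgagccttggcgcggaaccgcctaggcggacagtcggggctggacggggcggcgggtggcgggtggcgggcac
Top2a (chr11:99024190-99024309, minus strand): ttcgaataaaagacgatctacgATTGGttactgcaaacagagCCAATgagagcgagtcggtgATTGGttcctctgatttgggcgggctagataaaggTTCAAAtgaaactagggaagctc
Cdk1 (chr10:69352913-69353032, minus strand): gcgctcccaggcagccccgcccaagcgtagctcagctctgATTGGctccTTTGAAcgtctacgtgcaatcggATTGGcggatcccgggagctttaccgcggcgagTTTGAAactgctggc
Ube2c (chr2:164769809-164769928, plus strand): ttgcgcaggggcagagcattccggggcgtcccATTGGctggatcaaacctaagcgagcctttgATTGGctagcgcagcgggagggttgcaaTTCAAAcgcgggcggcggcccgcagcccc
Mcm6 (chr1:128359706-128359825, minus strand): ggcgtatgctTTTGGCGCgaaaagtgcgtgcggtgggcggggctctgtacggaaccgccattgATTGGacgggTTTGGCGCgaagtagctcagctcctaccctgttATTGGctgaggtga

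Mki67, Top2a, Cdk1 and Ube2c show the CHR, which Top2a, Cdk1 and Ube2c combine with 2 or 3 CCAAT boxes, and Mcm6 shows 2 E2F sites with 2 CCAAT boxes. The CHR was found in 16 of 45 mitosis promoters (35.56%) and in 12.38% of all tested promoters, and a CCAAT box in 31 of 45 (68.89%) against 40.81%. The CHR was also found in 5 of 17 Hedgehog promoters (29.41%) and 2 of 10 Purkinje promoters, but in 5 of 31 replication promoters (16.13%). A CCAAT box was found in 58.06% of replication and 57.14% of repair promoters. An E2F site was found in 6 of 31 replication promoters (19.35%) and 3 of 14 repair promoters (21.43%), against 2 of 45 mitosis promoters and 2.865% of all. Over whole calls the shares were closer: the CHR was in 14.18% of promoters of genes called higher and 10.9% of those called lower, and E2F sites in 5.11% and 1.57%. The GLI site GACCACCCA was in 0.267% of all promoters and in none of 17 from the Hedgehog list. These shares are descriptions without a test, and a match is not a bound site.

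Several chromatin genes differed strongly between tumour and cerebellum. Of 11 high mobility group and lamina genes 9 rose (median 2.84): Hmgb2, which bends DNA in dividing cells, stood at 343, 572 and 294 CPM in tumours and 5.66, 8.05 and 7.68 CPM in cerebellum (log2 change 5.82, SE 0.38, adjusted p = 3.92e-06), and Lmnb1, a lamin of dividing and neural cells, at 627, 996 and 448 CPM against 18.5, 23 and 41.4 CPM (log2 change 4.64, SE 0.44, adjusted p = 3.38e-05). Lmna, the lamin of differentiated cells, fell from 41.7, 35.8 and 46.5 CPM to 15, 13.9 and 11.5 CPM (log2 change -1.61, SE 0.28, adjusted p = 0.00124). Among 15 Polycomb genes 7 rose and 4 fell, the latter near the 23.7% of all tested genes. Ezh2, the methyltransferase of dividing cells, stood at 164, 220.3 and 127 CPM against 29.8, 24.7 and 17.8 CPM (log2 change 2.83, SE 0.31, adjusted p = 8.27e-05), while its paralogue Ezh1 fell from 73, 67.4 and 85.5 to 36.1, 20.5 and 31.5 CPM (log2 change -1.37, SE 0.29, adjusted p = 0.00337). Cbx2, a Polycomb reader, rose by 3.26 on the log2 scale and Cbx7, another, stood at 4.62, 6.73 and 0.741 CPM against 41.1, 62 and 53.2 CPM (-3.55). In the BAF chromatin remodelling complex, 3 of 5 progenitor subunits rose, Actl6a by 2.4. Of 6 neuronal subunits, the 3 genes Smarca2, Smarcd3 and Dpf3 fell, and the Smarcd3 call was lost with all 9 libraries. The other 5 of these 11 did not pass. With 3 of 11 higher and 3 lower, the list lay near the 21.5% and 23.7% of all tested genes.

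Protein synthesis genes rose by smaller and even amounts. Of 76 cytosolic ribosomal protein genes 68 rose (median 1.88) and of 18 nucleolar ribosome biogenesis factors 15 rose (median 1.8), with none lower in either list. Rpl4, a protein of the large subunit, stood at 1739, 1578 and 1332 CPM in tumours and 356, 315 and 353 CPM in cerebellum (log2 change 2.18, SE 0.25, adjusted p = 1.07e-04). Npm1, a nucleolar chaperone, stood at 118, 197 and 127 CPM against 25.7, 42.9 and 12.9 CPM (log2 change 2.45, SE 0.42, adjusted p = 0.00109). Polr1a, the large subunit of RNA polymerase I, stood at 279, 289.6 and 383 CPM against 77.4, 71.8 and 76.6 CPM. Over all tested genes 21.5% rose and 23.7% fell. Of 11 Myc network genes 5 rose and 1 fell, or none without tumour 1, tumour 2 or cerebellum 3. Beside Mycn, these included Mycl1 (107, 192 and 113 CPM against 11.6, 5.66 and 3.84 CPM, log2 change 4.3, 4.92 without cerebellum 1) and Myc (29.1, 55 and 12.2 CPM against 2.31, 1.49 and 3.84 CPM, 3.62, 2.98 without tumour 2).

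Genes of Purkinje cells and inhibitory interneurons fell steeply. Of 20 Purkinje cell genes 19 fell and 1 rose (median -5.77), against 23.7% lower among all tested genes. Their summed level was 603, 548 and 715 CPM in tumours and 14686, 12381 and 12955 CPM in cerebellum. Pcp2, a Purkinje cell G protein regulator (chromosome 8, 3623371 to 3625545), had no fragment in the tumours and stood at 185, 158 and 332 CPM in cerebellum, at least 322-fold lower. Calb1, a calcium buffer, stood at 1.76, 0.977 and 0.741 CPM against 711, 731 and 555 CPM (log2 change -9.12, SE 0.4, adjusted p = 1.99e-06). Itpr1, the calcium release channel of the Purkinje cell, stood at 144, 168 and 234 CPM against 6622, 5302 and 5572 CPM (log2 change -5.0, SE 0.33, adjusted p = 4.44e-06). Foxp2, a transcription factor of Purkinje cells and other neurons, was the member that rose (76.6, 111 and 31.1 CPM against 15.2, 12.2 and 10.5 CPM, log2 change 2.54, SE 0.44, adjusted p = 0.00119). Of 12 tested genes of inhibitory interneurons 10 fell and none rose (median -3.87). Gad1, which makes GABA, stood at 0.881, 0.217 and 2.22 CPM against 253, 288 and 242 CPM (-8.26, -7.48 without tumour 2 and -9.05 without tumour 3).

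The machinery of synapses and excitability fell across lists. Of 23 synaptic vesicle genes 21 fell (median -2.99), of 24 synaptic receptor and scaffold genes 21 fell (median -3.24), and of 25 ion channel and pump genes 22 fell (median -3.26), with 1 higher in each list. The higher call was lost without tumour 3, cerebellum 1 or cerebellum 2 in the receptor list and without tumour 1, tumour 3 or cerebellum 2 in the channel list. Snap25, a fusion protein of synaptic vesicles, stood at 184, 57.3 and 177 CPM in tumours and 3432, 2454 and 1971 CPM in cerebellum (log2 change -4.24, SE 0.48, adjusted p = 1.01e-04). Atp1b1, the beta subunit of the sodium pump, stood at 9.25, 15.7 and 17.8 CPM against 723, 779 and 1214 CPM (log2 change -5.99, SE 0.39, adjusted p = 4.26e-06). Stx1a, a syntaxin of the release machinery, rose (23.8, 27.3 and 41.1 CPM against 6.43, 4.77 and 10.7 CPM, log2 change 2.04, SE 0.4, adjusted p = 0.00239). Gria2, a glutamate receptor subunit, overlapped between the groups (532, 281 and 574 CPM against 693, 585 and 508 CPM). The cerebellum libraries themselves differed in some of these genes: Shank1, a scaffold of excitatory synapses, stood at 44.2, 142 and 338 CPM in cerebellum and 2.86, 2.6 and 1.48 CPM in tumours.

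Cytoskeletal genes moved in both directions. Of 17 genes 6 rose, 6 fell and 5 did not pass (median 0.14). Over all tested genes 21.5% were higher and 23.7% lower. Neurofilament genes of mature axons fell: Nefh stood at 0.881, 0.543 and 0 CPM in tumours and 309, 288 and 251 CPM in cerebellum (log2 change -8.97, SE 0.47, adjusted p = 1.99e-06). Tubulins of young neurons rose, Tubb2b by 2.15 and Tuba1a by 1.33, while Tubb4a, a tubulin of myelin and mature neurons, stood at 42.3, 51.8 and 41.5 CPM against 263, 586 and 1293 CPM (log2 change -3.98, -3.2 without cerebellum 3). Map1b and Map2, kept through neuronal life, did not pass.

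**Figure D3:**
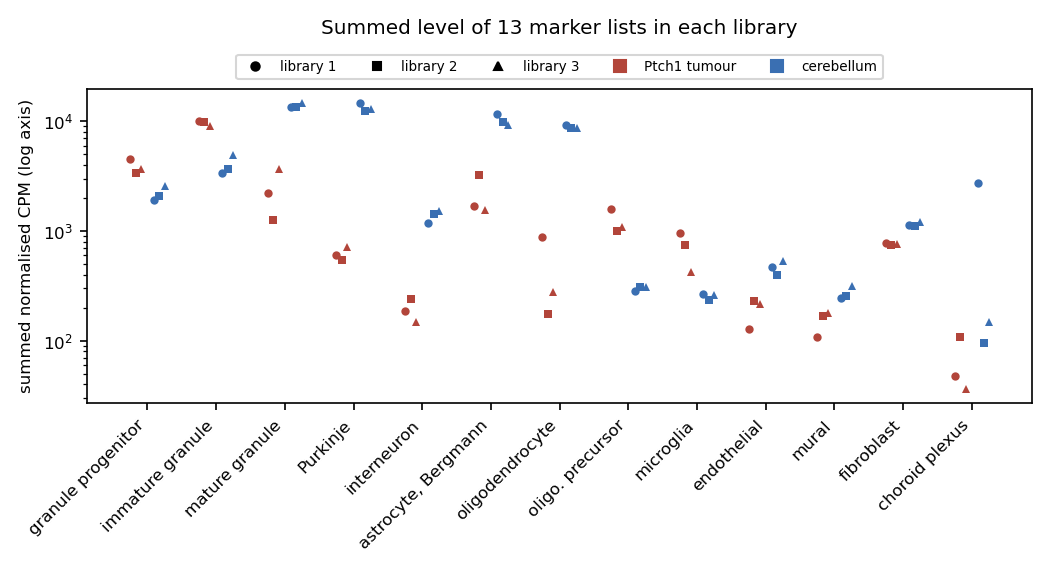
Summed normalised CPM of 13 marker lists on a log axis in each of the 3 Ptch1 tumours (red) and 3 cerebellum libraries (blue), with the symbol giving the library number. Purkinje, oligodendrocyte and mature granule lists lie lower in every tumour, and immature granule, oligodendrocyte precursor and microglia lists lie higher in every tumour.

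Genes of mature glia fell. Of 19 astrocyte and Bergmann glia genes 14 fell and none rose (median -3.02), and of 17 genes of myelinating oligodendrocytes 15 fell and none rose (median -5.02). Aldoc, an aldolase of astrocytes and of a class of Purkinje cells, stood at 23.6, 50.5 and 30.7 CPM in tumours and 3206, 2145 and 2059 CPM in cerebellum (log2 change -6.13, SE 0.42, adjusted p = 5.07e-06). Aqp4, the water channel of astrocyte endfeet, stood at 78.4, 243 and 32.6 CPM against 1037, 879 and 528 CPM (log2 change -2.78, -3.87 without tumour 2), and the summed astrocyte list was 1674, 3243 and 1562 CPM in tumours, highest in tumour 2. Gfap, a filament protein of reactive astrocytes, overlapped between the groups (98.4, 148 and 61.8 CPM against 146, 128 and 164 CPM). Mbp, a myelin protein, stood at 256, 48.5 and 104 CPM against 4438, 4093 and 4710.0 CPM (-5.02, -5.86 without tumour 1). The summed oligodendrocyte list was 886, 173 and 279.6 CPM in tumours, highest in tumour 1, against 9349, 8685 and 8736 CPM in cerebellum.

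Precursor genes of the oligodendrocyte lineage went up instead. Of 9 tested, 5 rose and 1 fell (median 1.47), against 21.5% higher and 23.7% lower among all tested genes. The fall, of Gpr17, was not called when tumour 2, tumour 3 or any 1 cerebellum library was left out, and 2 members fell without tumour 1. Pdgfra, the platelet-derived growth factor receptor of these precursors (chromosome 5, 75152292 to 75198215), stood at 804, 541 and 604 CPM in tumours and 55.5, 54.8 and 39 CPM in cerebellum (log2 change 3.71, SE 0.3, adjusted p = 1.24e-05). Olig2, a transcription factor of the lineage and of some tumour progenitors, stood at 81.5, 94.2 and 87.8 CPM against 27.3, 26.5 and 37.8 CPM (log2 change 1.52, SE 0.25, adjusted p = 9.16e-04), and C1ql1 at 88.8, 101 and 62.6 CPM against 3.86, 4.17 and 9.9 CPM (log2 change 3.78, SE 0.41, adjusted p = 8.08e-05, and 4.41 without cerebellum 3). Lhfpl3, Sox6 and Neu4 overlapped and did not pass, so the list was mixed. Of 12 genes of neural stem cells 4 rose and 1 fell, against 21.5% and 23.7% of all tested genes. None fell without tumour 1, tumour 3 or cerebellum 3, and 2 fell without tumour 2. Nes, the intermediate filament nestin, stood at 101, 825 and 152 CPM in tumours, far higher in tumour 2, and 24.9, 19.97 and 17 CPM in cerebellum (4.13, 2.61 without tumour 2). Sox2, a stem cell factor also made by Bergmann glia, stood at 33.9, 74.8 and 12.2 CPM against 92.8, 65.6 and 51.1 CPM and did not pass.

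Several genes of microglia and macrophages were higher in tumours. Of 22 tested, 10 rose (median 1.38), against 21.5% of all tested genes. A fall was called for 2, but for 0 without tumour 2 or cerebellum 3 and for 1 without any other single library. For the whole list, the summed level was 948, 744 and 422 CPM in tumours and 264, 235 and 263 CPM in cerebellum. Lyz2, lysozyme of macrophages and monocytes, stood at 337, 271 and 99.98 CPM against 15.2, 5.07 and 4.45 CPM (log2 change 4.85, SE 0.6, adjusted p = 1.66e-04, and 5.68 without cerebellum 1), and the complement gene C1qa at 64.7, 57.7 and 43.7 CPM against 18.3, 14 and 14.1 CPM (log2 change 1.84, SE 0.29, adjusted p = 6.23e-04). The receptors of resting microglia Cx3cr1, Csf1r and P2ry12 were not among those that rose. Fcrls, another microglial gene of the list, did rise, with 32.8, 37.8 and 22.2 CPM against 13.4, 1.49 and 2.43 CPM (log2 change 2.43, SE 0.67, adjusted p = 0.0143, and 3.99 without cerebellum 1). Cx3cr1 stood at 24.7, 22.1 and 30.7 CPM against 46.3, 41.1 and 72.1 CPM (log2 change -1.05, SE 0.3, adjusted p = 0.0177), a lower call that was lost without tumour 1 (-1.02), tumour 2 (-0.95) or cerebellum 3 (-0.74). No call was made for Csf1r and P2ry12: Csf1r stood at 34.6, 25 and 12.2 CPM against 33.7, 26.8 and 30.1 CPM and P2ry12 at 9.25, 9.33 and 3.7 CPM against 7.97, 14 and 11.7 CPM. Of 15 lymphocyte genes with a row in the files, Cd4, which macrophages also make, was the only one with enough fragments to be tested, and none of 8 neutrophil genes could be tested. Of 17 endothelial genes 7 fell, against 23.7% of all tested genes, and none rose (median -1.0). Their summed level was 128, 229 and 217 CPM in tumours against 468, 400.3 and 529 CPM in cerebellum. Of 3 tested erythrocyte genes, the globin genes Hba-a1 and Beta-s fell too and 1 did not pass. Hba-a1 stood at 0.661, 6.4 and 1.48 CPM against 185, 193 and 8.49 CPM. The low Hba-a1 value in cerebellum 3 was not shared by the summed list of 6 erythrocyte genes. That sum was 4.18, 15 and 16.3 CPM in tumours and 308, 294 and 395 CPM in cerebellum. Ttr, a choroid plexus gene, stood at 2622, 37 and 84.5 CPM in cerebellum and 0, 0.217 and 8.52 CPM in tumours, its cerebellar level resting on library 1.

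Many energy genes fell. Of 20 glycolysis genes 12 fell and 1 rose, or 2 without tumour 1 (median -0.99). The gene that rose with all 6 libraries was Hk2, the hexokinase of growing cells, which stood at 259.9, 386 and 365 CPM in tumours and 14.9, 12.8 and 17.2 CPM in cerebellum (log2 change 4.49, SE 0.29, adjusted p = 4.24e-06). Hk1, the hexokinase of neurons, fell from 185, 208 and 283 CPM to 27.3, 14.4 and 58.1 CPM (log2 change -2.79, SE 0.46, adjusted p = 9.16e-04, and -3.4 without tumour 3). Pfkm, the phosphofructokinase of neurons and muscle, stood at 47.8, 41.7 and 73.7 CPM against 373, 392 and 382 CPM (log2 change -2.82, SE 0.29, adjusted p = 5.12e-05). Of 20 nuclear oxidative phosphorylation genes 11 fell and none rose (median -0.87), but 4 to 6 fell without tumour 1, tumour 3, cerebellum 1 or cerebellum 2. Of 17 cholesterol genes 3 fell and none rose, with a median of -0.07, and the share that fell was below the 23.7% of all tested genes. Cyp46a1, the neuronal cholesterol hydroxylase, was among those that fell (1.76, 0.868 and 1.11 CPM against 18, 15.5 and 31.3 CPM).

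In other signalling families, some members stood far from their cerebellar level while the counts of calls lay near the background of 21.5% higher and 23.7% lower for the BMP and insulin-like growth factor lists. In the WNT list of 16, 6 rose and 3 fell: Sfrp1, Sfrp2, Fzd2 and Nkd1 were among those higher, with Nkd1 at 280.4, 204 and 291 CPM against 21.3, 18.8 and 22.2 CPM (log2 change 3.63, SE 0.27, adjusted p = 7.92e-06), while Axin2, the common readout of the pathway, overlapped (32.2, 44.2 and 69.6 CPM against 35, 35.2 and 48.1 CPM). In the BMP list of 16, 4 rose and 5 fell: Bmp5 stood at 368, 203 and 335 CPM against 19.3, 16.4 and 21.6 CPM (log2 change 3.98, SE 0.32, adjusted p = 1.21e-05), and Id4 at 4.62, 4.23 and 0.370 CPM against 119, 93.3 and 80.2 CPM (log2 change -4.84, SE 0.52, adjusted p = 7.29e-05). In the insulin-like growth factor list of 12, 2 rose and 2 fell, with 1 higher without tumour 1 and 4 without cerebellum 1, and Irs1, a docking protein of the receptors, stood at 586, 687 and 617 CPM against 75.6, 111 and 133 CPM (log2 change 2.56, SE 0.28, adjusted p = 8.73e-05). Hey1, a Notch and Hedgehog target, stood at 137, 248 and 149 CPM against 30.3, 43.2 and 45.5 CPM (log2 change 2.16, SE 0.31, adjusted p = 3.89e-04). Zeb1, a zinc finger factor that keeps granule progenitors unpolarised, stood at 1058, 1068 and 873 CPM against 204, 212 and 204 CPM (log2 change 2.27, SE 0.24, adjusted p = 6.85e-05), and Cdh1, the epithelial cadherin, fell from 26.2, 23.8 and 17.4 CPM to 0, 0.109 and 0 CPM (log2 change -8.04, SE 0.67, adjusted p = 1.66e-05, and -9.45 without tumour 2).

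When the genes were ordered by chromosome, some chromosomes stood apart from the rest. For 9882 genes with a mean of at least 10 CPM, log2(CPM + 1) in each tumour was set against the cerebellum mean, and the median was taken per chromosome. Over all genes these medians lay between -0.01 and 0.06 in the 3 tumours. Chromosome 6, with 495 genes, had medians of 0.55, 0.47 and 0.64, the highest or second highest of any chromosome in each tumour. Of its 621 tested genes 244 were called higher (39.3%, against 21.5% of all tested genes) and 107 lower. Each of 3 equal segments of the chromosome by gene order was raised in each tumour, from 0.4 to 0.85. Chromosome 14 was at 0.48 in tumour 1, against 0.1 and -0.07 in tumours 2 and 3. Chromosome 17 was at 0.59 in tumour 2, against 0.02 and 0.03 in tumours 1 and 3. The 16 chromosomes other than 6, 13, 14 and 17 lay between -0.3 and 0.11 in every tumour, the X included, and the cerebellum libraries between -0.07 and 0.08 on every chromosome. The lowest of all chromosomes in each tumour was chromosome 19, at -0.25, -0.20 and -0.30. Of its 414 tested genes 128 were called lower (30.9%, against 23.7% of all tested genes) and 64 higher.

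Chromosome 13 had medians of 0.32, 0.43 and 0.22, which were 1.08, 1.18 and 0.86 in the first of its 3 segments by gene order, where the main histone cluster lies, and 0.03 to 0.24 in the other segments. They were 0.07, 0.18 and 0.01 when the genes of all lists were left out. On chromosome 6 the medians without the listed genes were 0.59, 0.47 and 0.65. Members named above that lie on chromosome 6 include Smo, Ccnd2, Atoh1, Foxm1, Ezh2, Cdkn1b and Hk2, which rose, and Itpr1, which fell. Their changes, 1.73 to 7.26 among those that rose, exceed the median of their chromosome. DNA copy number was not measured, and what the chromosome medians contribute to single genes was not tested. Genes on a chromosome are not independent replicates, and each tumour counts as 1 observation.

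**Figure D4:**
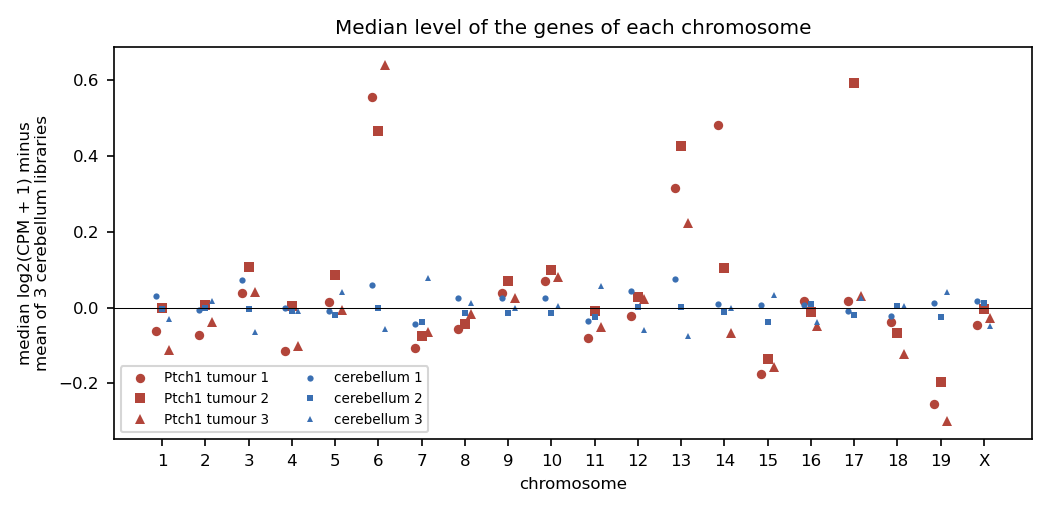
Median log2 difference from the cerebellum mean over the genes of each chromosome, for the 3 Ptch1 tumours (red) and the 3 cerebellum libraries (blue). Chromosome 6 is raised in all 3 tumours (0.47 to 0.64), chromosome 14 in tumour 1 (0.48), chromosome 17 in tumour 2 (0.59) and chromosome 13 in all 3 (0.22 to 0.43). Chromosome 19 is the lowest in each tumour (-0.25, -0.20 and -0.30).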

How the data were processed

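RNA from 3 Ptch1+/- tumours and 3 adult wild-type cerebella was sequenced, and 1 table per library lists 23360 genes. Per the file headers, the authors deposited raw fragments per gene, here treated as estimated counts because 1147 to 1440 values per Ptch1 or cerebellum library are not whole. The authors also deposited scaled fragments, a signal equal to the raw fragments times 1 factor per library, and FPKM values, used here only for a filter. Bowtie 0.12.2 and build mm10 are named in the submitters' processing notes, and the counting tool and annotation are not given in the sources used here. Coordinates are from GENCODE M21 (mm10), matched by symbol for 21688 genes.

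Raw fragments were rounded, filtered with filterByExpr (minimum count 10, minimum total 15) and scaled by TMM over the 6 libraries. The 2 groups were compared with the quasi-likelihood test of edgeR 4.0.16 (R 4.3.3), with Benjamini-Hochberg adjustment over the 13364 genes kept. The code was tested on simulated data. DESeq2 1.42.0, limma 3.58.1, other scalings, other filters, all 9 libraries, a replicate block and leaving out each library were the alternatives. The part studied, its gene lists and tests were chosen with earlier results of these data known. Named genes are the key genes of each list, up to 4 called members per list with the largest changes (mean of at least 5 CPM in the higher group), the 12 largest changes each way among called genes without overlap and with at least 20 CPM, and the 10 largest differences in CPM each way. Predicted, clone-named and small RNA genes were passed over in the last 2 steps. Other list members are named as examples and were chosen after their values were seen. No list was given a test of its own. The files name the gene Hbb-bs as Beta-s and Mycl as Mycl1. Some list members are counted but not reported here by name.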

Additional observations from a re-analysis of the deposited data

How the results depend on the processing

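Over 15 alternatives, the counts of genes higher, lower and changed at least 2-fold stayed within 1.5 times those reported. Leaving out 1 library at a time gave 2081 to 2812 genes higher, 2454 to 2860 lower, 4466 to 5189 changed at least 2-fold and 958 to 1854 with an interval within 2-fold. Without tumour 1 that last count was 1266, and fewer libraries widen the intervals. DESeq2 called 3056 genes higher and 3260 lower, and limma on log2(CPM + 1) called 2941 and 3272. Of 297 listed or named genes that passed the test and were followed through the alternatives, 256 passed under every alternative and 41 were lost under at least 1. Otx2, which did not pass, was the 1 gene whose direction turned beside a call (-4.44 without tumour 2, 0.85 without tumour 3). With the replicate number as a block, 2782 genes were higher, 3106 lower, 5193 changed at least 2-fold and 1973 had an interval within 2-fold. Same-numbered libraries correlated at 0.0185, 0.0786 and 0.136 in their deviations from the group means, and the other pairs at -0.122 to 0.0795. Tumours 1 and 3 correlated best with the cerebellum library of their number, and tumour 2 best with cerebellum 1 (0.0795). Correlations this weak do not show whether replicate numbers pair the samples. The chromosome medians were examined under alternatives chosen after seeing the data, in which chromosome 6 ranged from 0.40 to 0.71 over the 3 tumours, chromosome 14 in tumour 1 from 0.40 to 0.51 and chromosome 17 in tumour 2 from 0.48 to 0.62. Genes below about 1 CPM rest on few fragments in tumour 3, the shallowest library.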

Other observations

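Some RNA-binding proteins that set neuronal splicing differed between tumour and cerebellum. Ptbp1, the splicing repressor of progenitors, stood at 149, 234 and 227 CPM in tumours and 37.3, 32.5 and 43.5 CPM in cerebellum (log2 change 2.43, SE 0.27, adjusted p = 9.48e-05, edgeR), and Ptbp2, its neuronal relative, at 188, 271 and 171 against 124, 113 and 86.7 CPM (log2 change 0.96, SE 0.27, adjusted p = 0.0156), a call that ended without tumour 2 (0.73) or cerebellum 2 (1.0). Rbfox1, a splicing factor of mature neurons, fell from 519, 472 and 635 CPM to 124, 38.5 and 99.2 CPM (log2 change -2.64, SE 0.41, adjusted p = 6.14e-04). Over the whole list of RNA-binding proteins 4 of 16 rose and 3 fell, near the shares over all tested genes (21.5% and 23.7%). Dnmt1, the methyltransferase that copies methylation at replication, stood at 372, 409 and 379.5 CPM against 108, 98.1 and 76.6 CPM (log2 change 2.04, SE 0.24, adjusted p = 1.36e-04). Of 12 DNA methylation genes 5 rose, or 3 without tumour 3, and none fell, against 21.5% and 23.7% of all tested genes. Slc17a6, the vesicular glutamate transporter of young granule cells and of unipolar brush cells, stood at 319, 96.8 and 107 CPM against 21.1, 21.5 and 26.3 CPM (log2 change 2.92, SE 0.46, adjusted p = 6.96e-04, and 2.15 without tumour 1), while Eomes, the factor that defines unipolar brush cells, fell from 18.3, 16.7 and 26.3 to 3.08, 1.84 and 7.78 CPM (log2 change -2.38, SE 0.54, adjusted p = 0.00531, and -3.04 without tumour 3), a call that was lost with all 9 libraries (-2.32). Meg3, a maternally expressed noncoding RNA of neurons, stood at 18.3, 8.79 and 137 CPM against 1507, 2132 and 3278 CPM, highest in tumour 3 among the tumours.

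Some matrix genes rose and others fell, with counts near the background. Of 18 fibroblast and matrix genes 5 rose and 4 fell, against 21.5% and 23.7% of all tested genes. Without tumour 1, tumour 3, cerebellum 2 or cerebellum 3, only 1 to 3 rose. The basement membrane collagen Col4a2 rose, with 50.4, 140.0 and 142 CPM in tumours against 42.9, 34.3 and 50.1 CPM (log2 change 1.38, SE 0.38, adjusted p = 0.0148, with no call without cerebellum 2 at 1.25), and was lowest in tumour 1. The fibrillar collagen Col1a2 fell, with 9.91, 10.6 and 19.3 CPM against 53.2, 51.9 and 51.5 CPM (log2 change -2.0, SE 0.32, adjusted p = 7.91e-04). Sparc, a secreted matrix protein of glia and vessels, stood at 139, 118 and 59.99 CPM against 578, 579 and 624 CPM (log2 change -2.49, SE 0.33, adjusted p = 2.47e-04), and Mmp2, a collagenase, at 32.2, 17.4 and 16.7 CPM against 1.54, 5.37 and 3.03 CPM (log2 change 2.75, SE 0.51, adjusted p = 0.00179). In the Notch list of 16, 3 rose, near the 21.5% of all tested genes, and 6 fell, against 23.7%. With single libraries left out, 1 to 4 were lower, and 5 were higher without cerebellum 3. The ligand Jag1 stood at 24.2, 51.9 and 25.5 CPM against 5.14, 5.37 and 11.7 CPM (log2 change 2.18, SE 0.46, adjusted p = 0.00345). The immediate early genes Fos and Nr4a1 differed widely among the cerebellum libraries, Fos with 7.97, 47.7 and 61.2 CPM and Nr4a1 with 15.2, 25.6 and 47.7 CPM, against 5.07, 5.53 and 7.78 and 2.64, 2.6 and 4.81 CPM in tumours. B2m, the light chain of MHC class I, rose (271, 205 and 177 CPM against 124, 91.2 and 73.8 CPM, log2 change 1.18, SE 0.28, adjusted p = 0.00702). By gene type, 23 of 48 processed pseudogenes tested were called higher and 4 lower, and 2 of 52 snoRNA genes were called higher and 12 lower. Over all tested genes the shares were 21.5% higher and 23.7% lower, and the share of snoRNA genes called lower lay near the latter. Otx2, a factor of choroid plexus and of other medulloblastoma subgroups, stood at 1.54, 69.6 and 0 CPM in tumours and 30.9, 18.5 and 11.9 CPM in cerebellum.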
